A study of Mus musculus with 4 samples.

Results

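Early granule genes and the regulators of granulocyte fate were followed in BCR-ABL-expressing leukemia stem cells with and without Hif1a. The members were 10 named genes: 6 early granule genes (Mpo, Elane, Prtn3, Ctsg, Ms4a3 and Fcnb) and 4 regulators (Cebpa, Cebpe, Gfi1 and Csf3r). All 10 were measured, among 19938 genes in all, and each had a single probe set that mapped to 1 gene symbol. Donor marrow came from Hif1a-/- mice in 2 samples and from WT C57BL/6 mice in 2 samples. Donors of both genotypes had received 5-fluorouracil, their marrow was transduced with a BCR-ABL/GFP retrovirus and transplanted into C57BL/6 recipients that kept their own Hif1a, and the label on every sample gives an age of 8 weeks. The cells were taken from recipient marrow on day 14 after transplantation by sorting for GFP and c-Kit and Sca-1 and against lineage markers, and each sample was hybridised to 1 Affymetrix whole-transcript array. The labels name biological replicates without saying whether they came from separate or pooled animals, so the spread behind every p-value is that of these samples and may be technical. They do not say which exons of Hif1a were removed or by what means.

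Neutrophils fill their granules in waves. The first, azurophil granules are loaded in promyelocytes with myeloperoxidase and with the serine proteases elastase, proteinase 3 and cathepsin G, and the later specific granules are loaded with other proteins as the cells mature. The transcription factor C/EBP alpha carries progenitors into the granulocyte and monocyte lineage, Gfi1 represses monocyte genes in favour of the granulocyte fate, C/EBP epsilon is needed for specific granules, and the receptor for G-CSF drives the output of neutrophils. PU.1, C/EBP, Myb and core binding factor are known to act on early granule genes.

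The promoters of 5 granule genes are shown. The first 4 were higher on WT replicate 2 than on WT replicate 1, and the fifth was lower. They are the 250 bases before a RefSeq start on assembly GRCm38.p6: chr10:79886062-79886311 on the plus strand for Elane, chr10:79879417-79879666 on the plus strand for Prtn3, chr11:87793534-87793783 on the plus strand for Mpo, chr14:56102575-56102824 on the minus strand for Ctsg and chr2:28084879-28085128 on the minus strand for Fcnb. Each is written 5′ to 3′ on the strand of its gene, and capitals mark matches to the letters searched for PU.1, C/EBP, core binding factor and Gfi1.
Elane: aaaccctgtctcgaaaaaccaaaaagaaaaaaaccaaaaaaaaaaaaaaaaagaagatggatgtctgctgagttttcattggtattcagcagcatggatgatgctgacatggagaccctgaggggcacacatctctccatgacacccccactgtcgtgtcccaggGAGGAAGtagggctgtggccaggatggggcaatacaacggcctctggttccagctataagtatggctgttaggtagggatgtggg
Prtn3: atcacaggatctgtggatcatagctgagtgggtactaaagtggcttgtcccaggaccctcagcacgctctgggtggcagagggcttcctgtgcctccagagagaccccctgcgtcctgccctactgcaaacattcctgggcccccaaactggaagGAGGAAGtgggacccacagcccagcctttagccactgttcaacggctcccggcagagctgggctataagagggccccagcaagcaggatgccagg
Mpo: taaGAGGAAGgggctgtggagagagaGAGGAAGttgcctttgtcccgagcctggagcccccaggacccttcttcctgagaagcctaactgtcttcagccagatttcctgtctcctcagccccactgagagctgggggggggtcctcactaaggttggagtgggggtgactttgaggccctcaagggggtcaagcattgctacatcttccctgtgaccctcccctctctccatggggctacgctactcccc
Ctsg: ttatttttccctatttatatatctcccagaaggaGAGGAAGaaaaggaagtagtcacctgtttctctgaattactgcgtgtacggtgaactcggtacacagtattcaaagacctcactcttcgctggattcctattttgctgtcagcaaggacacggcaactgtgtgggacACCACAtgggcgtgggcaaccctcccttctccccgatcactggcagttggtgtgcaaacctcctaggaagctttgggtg
Fcnb: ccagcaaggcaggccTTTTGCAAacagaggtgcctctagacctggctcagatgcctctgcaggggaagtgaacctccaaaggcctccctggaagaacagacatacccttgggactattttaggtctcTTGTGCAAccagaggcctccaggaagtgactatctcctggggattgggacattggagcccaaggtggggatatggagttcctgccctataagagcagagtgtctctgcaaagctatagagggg
The letters searched, on both strands, were GAGGAAG for PU.1, TTGCNNAA for C/EBP, TGTGGT for core binding factor, AATCANNGC for Gfi1 and AACNG for Myb. The RefSeq promoter table held an entry for 9 of the 10 members, with a second start for Gfi1, which made 10 windows. The window of Fcnb overlaps the RefSeq span of its gene, chr2:28076479-28084910. The window of Csf3r, chr4:126024409-126024658, and 1 of Gfi1, chr5:107724344-107724593, lie inside the RefSeq spans of their genes. The PU.1 letters stood in 5 of these 10 windows, those of Elane, Prtn3, Mpo, Ctsg and Csf3r, against 10.6% of the 32851 promoter windows of the same length. In Elane they began 85 bases before the start and in Prtn3, its neighbour on the chromosome, 95 bases before it, and Mpo held them at 2 places. The C/EBP letters stood in 2 windows, those of Fcnb and 1 start of Gfi1, against 9.56% of all windows. Those of core binding factor stood in 1, that of Ctsg, against 14.0%, and those of Gfi1 in 0, against 2.87%. The short Myb letters stood in 9 of the 10 windows, all but that of Ms4a3, against 74.2% of all windows, and shared bases with a C/EBP match in Fcnb and in Gfi1. Other members were sorted differently. Ms4a3 had the order of the first 4 shown, with WT replicate 2 minus replicate 1 at 0.52, and held no match. Gfi1 had that order too, at 0.44, without the PU.1 letters. Csf3r held the PU.1 letters but had the order of Fcnb, at -0.29. A match is a description of these windows and not a measured binding site, and a link between letters and levels was not tested.

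The deposited values were RMA log2 expression, which carry no detection call, so whether a gene was present or absent could not be read from them. They ran from 3.07 to 14.71, and the brightest members lay near the upper end of that range. By limma, 0 of 19938 genes (0%) passed an adjusted p of 0.05 and 334 (1.68%) had an unadjusted p under 0.05; with 4 arrays the precision is limited. Hif1a itself read 11.25 and 11.39 in Hif1a-/- cells, against 11.34 and 11.50 in WT cells, with a difference of -0.09 and a 95% interval from -0.42 to 0.23, so the probe set for Hif1a did not separate the labelled genotypes. Kit, a gene of the sort, read 10.95 and 10.61 in Hif1a-/- cells, against 10.32 and 11.07 in WT cells, and for Sca-1 (Ly6a) no probe set mapped to 1 symbol. Of the 12 measured genes listed here as lineage markers, 10 were lower and 2 higher on WT replicate 2 than on WT replicate 1. Their gaps ran from -2.46 to 0.45, with a median of -0.25. The widest were those of the myeloid markers Ly6g and Itgam and of the B cell gene Cd79a, followed by Il7r at -1.06. Cd79a, named after its values were seen, read 8.96 and 8.46 in Hif1a-/- cells, against 9.77 and 7.93 in WT cells. Ly6g, a neutrophil surface marker, read 11.74 and 11.64 in Hif1a-/- cells, against 13.10 and 10.64 in WT cells, and Itgam, which encodes the lineage marker CD11b, read 11.0 and 10.71 in Hif1a-/- cells, against 11.88 and 10.27 in WT cells. Cd34, a progenitor marker, went the other way between the WT samples, with 10.70 and 11.70 in Hif1a-/- cells, against 10.31 and 12.29 in WT cells.

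The comparison of Hif1a-/- with WT cells asked whether early granule genes and their regulators differ in leukemia stem cells without Hif1a. No member passed the test, with an adjusted limma p of 0.999 for each of the 10, and 0 of the 10 had an unadjusted p under 0.05. All 6 early granule genes had a higher mean in Hif1a-/- cells, where 61.4% of all genes did, with a median difference of 0.15 against 0.03 over all genes. Of the 4 regulators 3 had a lower mean, where 38.6% of all genes did, with a median difference of -0.15. Both Hif1a-/- samples lay below both WT samples for 2 of the 10 members, Cebpa and Csf3r, where 9.05% of all genes did, and above them for 0 of the 10, where 15.7% of all genes did. These are RNA levels of sorted cells in bulk, in which fewer cells of a type and less RNA per cell cannot be told apart.

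**Figure D1:**
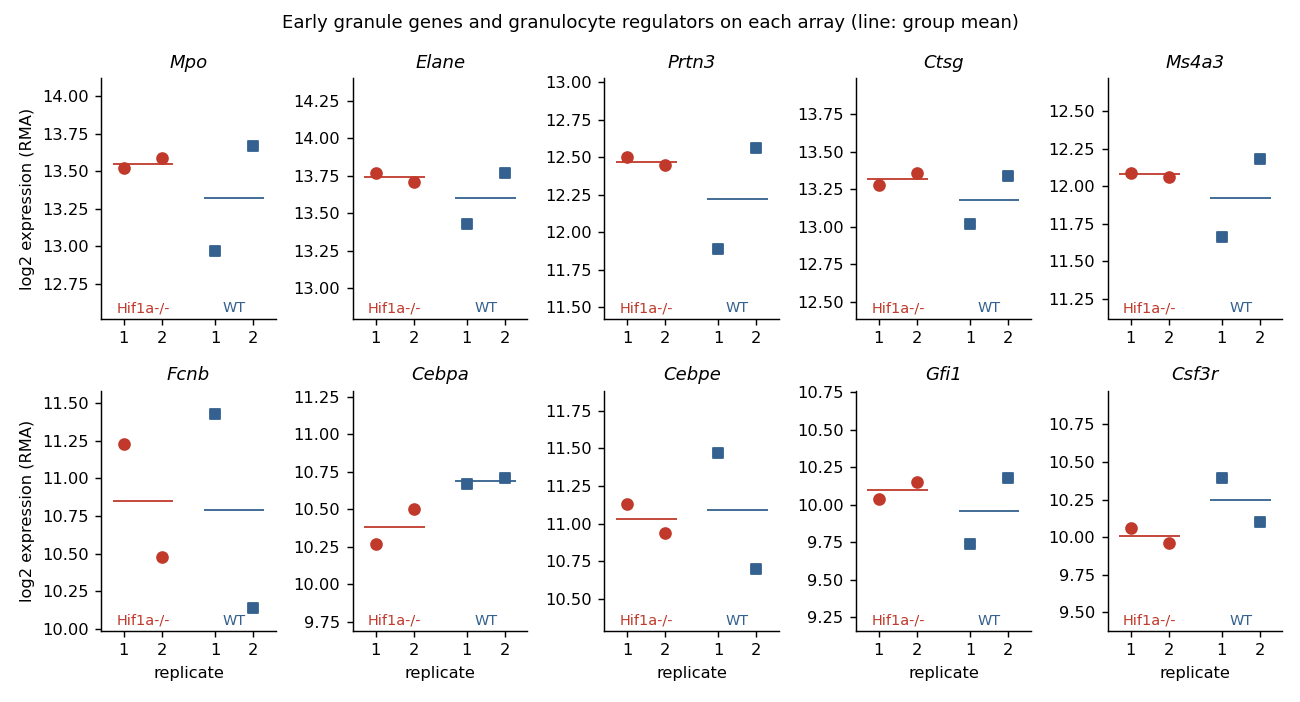
RMA log2 expression of the 10 members on each of the 4 arrays, with Hif1a-/- replicates as red circles, WT replicates as blue squares and lines at the group means; every panel spans the same number of log2 units. The Hif1a-/- samples lie close together for Mpo (13.52 and 13.59), while the WT samples lie apart (12.97 and 13.67), and only for Cebpa and Csf3r do both Hif1a-/- samples lie below both WT samples.

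Mpo encodes myeloperoxidase, which makes hypochlorous acid from hydrogen peroxide. It read 13.52 and 13.59 in Hif1a-/- cells, against 12.97 and 13.67 in WT cells. WT replicate 1 was the low sample, and the other 3 lay within a narrow band, so the groups overlapped. The difference was 0.23 ± 0.23 (SE), with a 95% interval from -0.32 to 0.78; limma's unadjusted p was 0.348. Between the WT samples alone Mpo was 1.62-fold higher on replicate 2, a gap larger than that of 94.8% of all genes.

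Elane and Prtn3, whose promoters are shown above, encode neutrophil elastase and proteinase 3, closely related serine proteases. Elane read 13.77 and 13.71 in Hif1a-/- cells, against 13.43 and 13.77 in WT cells. Prtn3 read 12.50 and 12.45 in Hif1a-/- cells, against 11.89 and 12.56 in WT cells. In both genes WT replicate 1 was again the low sample and WT replicate 2 stood beside the Hif1a-/- samples. The difference was 0.15 ± 0.15 (SE) for Elane, with a 95% interval from -0.22 to 0.52, and 0.25 ± 0.22 (SE) for Prtn3, with one from -0.28 to 0.78. The gap between the WT samples was 0.34 for Elane and 0.67 for Prtn3, larger than in 76.1% and 94.2% of all genes.

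Ctsg encodes cathepsin G, a further serine protease of the azurophil granule, and Ms4a3 a membrane protein of granulocyte and monocyte progenitors. Ctsg read 13.28 and 13.36 in Hif1a-/- cells, against 13.02 and 13.34 in WT cells. Ms4a3 read 12.09 and 12.06 in Hif1a-/- cells, against 11.66 and 12.18 in WT cells. WT replicate 1 was the low sample in both genes, as for Mpo. The differences were 0.14 ± 0.15 (SE) for Ctsg, with a 95% interval from -0.22 to 0.51, and 0.16 ± 0.19 (SE) for Ms4a3, with one from -0.30 to 0.61.

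Fcnb encodes ficolin B, a lectin that binds carbohydrates on microbes and is made by myeloid cells of mouse marrow. It read 11.23 and 10.48 in Hif1a-/- cells, against 11.43 and 10.14 in WT cells. Replicate 1 was the high sample in both genotypes, the reverse of the order that the other 5 granule genes had between the WT samples. Its difference between genotypes was 0.07 ± 0.43 (SE), with a 95% interval from -0.97 to 1.11. Replicate 2 minus replicate 1 was -0.76 in Hif1a-/- and -1.29 in WT cells, gaps larger than those of 99.6% and 99.2% of all genes.

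Cebpa had the smallest unadjusted p of the 10 members. It read 10.27 and 10.50 in Hif1a-/- cells, against 10.67 and 10.71 in WT cells. Both Hif1a-/- samples lay below both WT samples, which here lay within 0.04 of each other, a gap larger than that of 11.6% of all genes. The mean was 1.24-fold lower in Hif1a-/- cells, a difference of -0.31 ± 0.14 (SE), with a 95% interval from -0.63 to 0.02. Limma's p was 0.0614 before and 0.999 after adjustment over all genes. Over the samples left out in turn the difference ran from -0.42 to -0.19, the smallest without Hif1a-/- replicate 1, and kept its sign.

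Csf3r, the gene of the G-CSF receptor, was the other member with separate groups. It read 10.06 and 9.96 in Hif1a-/- cells, against 10.39 and 10.10 in WT cells. The lower WT sample stood close to the Hif1a-/- samples, and replicate 2 minus replicate 1 was -0.29 within WT. The difference was -0.24 ± 0.15 (SE), with a 95% interval from -0.59 to 0.12. Limma's unadjusted p was 0.153, and the difference was -0.093 without WT replicate 1 and -0.38 without WT replicate 2.

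Cebpe and Gfi1 had groups that overlapped and went opposite ways between the WT samples. Cebpe read 11.13 and 10.94 in Hif1a-/- cells, against 11.47 and 10.70 in WT cells. Gfi1 read 10.04 and 10.15 in Hif1a-/- cells, against 9.74 and 10.18 in WT cells. WT replicate 1 was thus the highest of the 4 samples for Cebpe and the lowest for Gfi1, with both Hif1a-/- samples in between. The differences between genotypes were -0.05 ± 0.25 (SE) for Cebpe, with a 95% interval from -0.66 to 0.55, and 0.14 ± 0.17 (SE) for Gfi1, with one from -0.28 to 0.56.

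The direction of 8 of the 10 members rested on single samples. Without WT replicate 1 the differences were -0.12 for Mpo, -0.022 for Elane, -0.084 for Prtn3, -0.018 for Ctsg, -0.10 for Ms4a3 and -0.085 for Gfi1, all turned from their sign over 4 arrays; 0 of the 10 members passed the limma test there, where 0.502% of all genes passed with a higher and 1.25% with a lower level. Without WT replicate 2 the differences were 0.58 for Mpo and 0.58 for Prtn3, which passed the test there (limma adjusted p of 0.011 and 0.0102), as did 4.2% of all genes in the higher and 3.03% in the lower direction, with a lone WT array assumed to vary like the Hif1a-/- arrays. Fcnb differed by -0.58 without WT replicate 2, by -0.31 without Hif1a-/- replicate 1 and by 0.71 without WT replicate 1. Cebpe differed by 0.33 without WT replicate 1, by 0.039 without Hif1a-/- replicate 2 and by -0.44 without WT replicate 2. The median over the 6 early granule genes was -0.05 without WT replicate 1 and 0.37 without WT replicate 2.

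**Figure D2:**
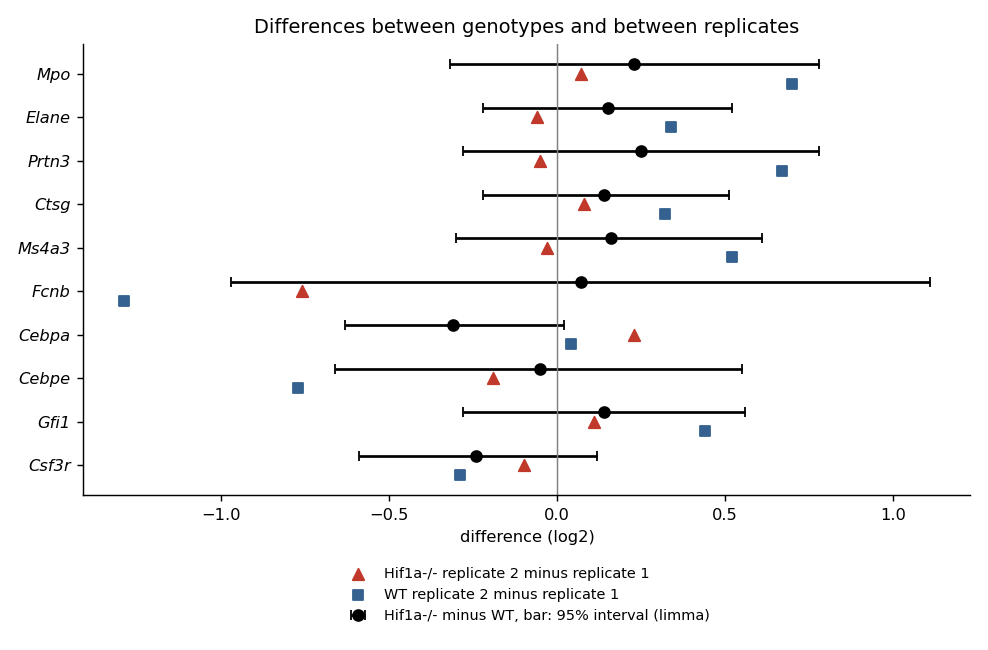
Differences on the log2 scale (horizontal axis) for each member: Hif1a-/- minus WT with its 95% limma interval (black), the gap between the Hif1a-/- replicates (red triangles) and the gap between the WT replicates (blue squares). Every genotype interval includes 0, and the WT gap is farther from 0 than the genotype difference for every member except Cebpa.

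The WT samples differed from each other more than the genotypes did in 9 of the 10 members, all but Cebpa, where 75.5% of all genes did. The Hif1a-/- samples differed by more than the genotypes in 2 of the 10, Fcnb and Cebpe, where 57% of all genes did. The WT samples were farther apart than the Hif1a-/- samples in 9 of the 10, again all but Cebpa, where 68.9% of all genes had this. Both Hif1a-/- samples lay between the WT samples in 6 of the 10 members (Mpo, Prtn3, Ms4a3, Fcnb, Cebpe and Gfi1), where 32.9% of all genes had this. Of all genes, 45.4% were higher and 54.5% lower on WT replicate 2 than on WT replicate 1. The order between the WT samples divided the members: 7 were higher on WT replicate 2 (Mpo, Elane, Prtn3, Ctsg, Ms4a3, Gfi1 and, by 0.04, Cebpa) and 3 were higher on WT replicate 1 (Fcnb, Cebpe and Csf3r). Because these directions cancelled, the mean profile of the members, centred gene by gene, was nearly flat, at 0.06 and -0.01 in Hif1a-/- and at -0.06 and 0.01 in WT samples. The genes nearest to that profile by Euclidean distance over the 4 arrays were accordingly flat ones, Dnajc12, Mpzl3, Pkd2l2, Keap1 and Prl8a8, at distances from 0.00394 to 0.0104.

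Genes of later neutrophil stages differed between the WT samples in one direction. All 19 measured mature neutrophil genes of 22 listed read lower on WT replicate 2 than on WT replicate 1, with differences from -2.56 to -0.74 and a median of -1.61, against a median of -0.03 over all genes, of which 54.5% read lower there. Ltf, which encodes lactoferrin of the specific granules and was chosen after its values were seen, read 12.74 and 12.21 in Hif1a-/- cells, against 13.52 and 11.47 in WT cells. In 18 of the 19 genes both Hif1a-/- samples lay between the WT samples, against 32.9% of all genes. Between genotypes the list had a median of -0.12, with 0 of 19 genes past the test and 0 with groups that did not overlap. Padi4, Il1b and Cxcr2, those with the smallest p, differed by -0.25, -0.21 and -0.20, and leaving out WT replicate 1 turned them to 0.20, 0.24 and 0.35. Without WT replicate 2 these were -0.71, -0.66 and -0.76. The list's mean log2 level was 11.77 and 11.62 in Hif1a-/- samples, against 12.60 and 10.96 in WT samples. Fcnb, Cebpe and Csf3r thus had the order of the mature genes between the WT samples, as did 54.5% of all genes. The 12 measured stem and progenitor genes of the sort were divided: 9 were higher on WT replicate 2, like the azurophil genes, and 3 were lower, where 45.4% and 54.5% of all genes were. Their median gap was 0.72, and they had mean levels of 9.71 and 9.91 in Hif1a-/- samples, against 9.57 and 10.24 in WT samples. The part of cell composition in the values of the members was not tested.

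**Figure D3:**
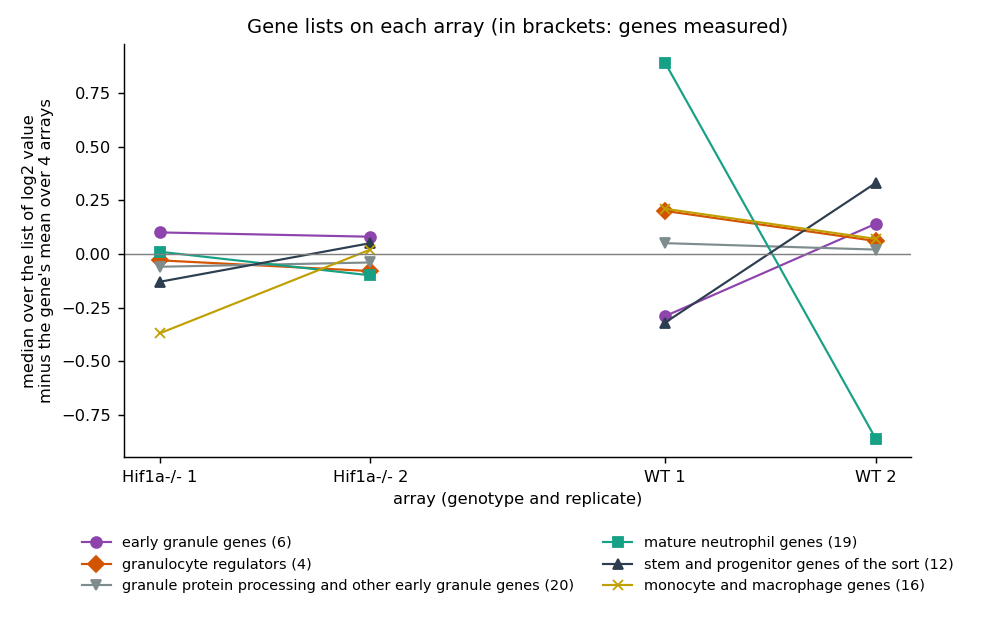
Median over each gene list of the log2 value minus the gene's own mean over the 4 arrays, for each array; lines only join the replicates of a genotype. Mature neutrophil genes lie at 0.01 and -0.10 on the Hif1a-/- arrays and at 0.89 and -0.86 on the WT arrays, while the early granule genes lie at 0.10 and 0.08 and at -0.29 and 0.14.

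Among other genes of the early granule stage none passed the test. Of 20 measured genes for granule protein processing and other early granule products, 5 had a higher and 15 a lower mean in Hif1a-/- cells, against 61.4% and 38.6% of all genes, 0 passed the test and 0 had an unadjusted p under 0.05. Both Hif1a-/- samples lay below both WT samples in 6 and above them in 2, against 9.05% and 15.7% of all genes, and the median difference was -0.10. Ctsc, the protease that activates the granule serine proteases by trimming their ends, read 11.62 and 11.78 in Hif1a-/- cells, against 11.93 and 11.98 in WT cells, a difference of -0.26 with a 95% interval from -0.57 to 0.05. Rab27a, a GTPase of granule release, differed by -0.24 and the GTPase Rab44 by -0.16, both with separate groups and adjusted limma p of 0.999. Without WT replicate 1 these were -0.15 for Rab27a and -0.083 for Rab44, and without WT replicate 2 Rab44 differed by -0.25. The substrates Elane, Prtn3 and Ctsg, as given above, had higher means in Hif1a-/- cells with groups that overlapped.

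Among 22 other regulators of granulocyte fate, 5 had a higher and 17 a lower mean in Hif1a-/- cells, against 61.4% and 38.6% of all genes, with a median of -0.08. The test was passed by 0 of them, and 5 had an unadjusted limma p under 0.05, 4 lower, where 0.978% of all genes were, and 1 higher, where 0.697% were. Both Hif1a-/- samples lay below both WT samples in 6 and above them in 1, against 9.05% and 15.7% of all genes. Irf8, which favours monocytes and dendritic cells over granulocytes, read 9.49 and 9.29 in Hif1a-/- cells, against 9.90 and 10.07 in WT cells, a difference of -0.59 ± 0.14 (SE). Lef1, a transcription factor known in humans to be needed for granulocyte maturation, read 8.36 and 8.18 in Hif1a-/- cells, against 8.77 and 8.75 in WT cells, a difference of -0.49 ± 0.13 (SE). Id2, an inhibitor of helix-loop-helix factors, differed by -0.41 and Egr2, a zinc finger factor of the macrophage fate, by -0.40, or by -0.24 without Hif1a-/- replicate 1. Gfi1b, the relative of Gfi1 that acts in red cell and platelet precursors, read 12.00 and 11.85 in Hif1a-/- cells, against 11.53 and 11.60 in WT cells. Its difference was 0.36 ± 0.13 (SE), with separate groups, whereas those of Gfi1 overlapped. Egr2 and Gfi1b were named after their values were seen, and all 5 had an adjusted limma p of 0.999. Without WT replicate 2, Irf8, Lef1, Id2 and Egr2 differed by -0.51, -0.51, -0.54 and -0.51. Without WT replicate 1 they differed by -0.68, -0.48, -0.29 and -0.30.

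The receptors and signal carriers of granulopoiesis gave 0 of 19 measured genes past the test and 0 with an unadjusted limma p under 0.05, with a median difference of -0.10. Il6ra, a receptor for interleukin 6, differed by -0.19, Stat3, the factor that the G-CSF receptor activates, by -0.19, and Kitl, the ligand of c-Kit, by -0.18. Both Hif1a-/- samples lay below both WT samples in each of these and in 4 of the 19 in all, against 9.05% of all genes. They lay above both WT samples in 1 of the 19, against 15.7% of all genes. The difference of Il6ra was -0.086 without Hif1a-/- replicate 1, and that of Stat3 was -0.12 without WT replicate 1. Kitl was dim, with 6.0 and 6.16 in Hif1a-/- cells, against 6.26 and 6.26 in WT cells; its difference was 0 with values raised to a floor of 7.48, the 25th percentile, and -0.10 without Hif1a-/- replicate 1. Of the 16 measured monocyte and macrophage genes, the mean of 13 was lower in Hif1a-/- cells, against 38.6% of all genes, and 3 of them had an unadjusted limma p under 0.05, against 0.978% of all genes. These were Irf8, the chemokine receptor gene Ccr2 (-0.87) and the pore-forming protein gene Mpeg1 (-0.54). Ccr2 differed by -0.47 without Hif1a-/- replicate 1, by -0.82 without WT replicate 1 and by -0.91 without WT replicate 2. Mpeg1 differed by -0.74 without WT replicate 2 and by -0.34 without WT replicate 1. The mean log2 level of the monocyte list was 9.47 and 9.96 in Hif1a-/- samples, against 10.02 and 9.90 in WT samples.

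Position on the chromosome was compared through the 5 measured genes on either side of Elane, Ctsg, Mpo and Ms4a3. Prtn3 and Elane lie next to each other at chr10:79879667-79883174 and chr10:79886312-79888216. Plppr3, the next measured gene beyond Prtn3, shared their order between the WT samples, with 9.64 and 9.75 in Hif1a-/- cells, against 9.10 and 10.12 in WT cells. Wdr18 shared it with a gap of 0.80, and Med16, Ptbp1 and Palm with gaps of 0.24, 0.20 and 0.12. Misp, R3hdm4, Kiss1r and Arid3a had the opposite order, with gaps of -0.24, -0.25, -0.27 and -0.45, so the neighbours were divided. Ctsg, at chr14:56099885-56102574, lies in a cluster of related proteases between mast cell protease genes on one side and granzyme genes on the other. There Mcpt8, the basophil protease gene beside Ctsg, differed by -0.09, and the next genes Mcpt4, Mcpt2, Mcpt1 and Cma1 by -1.30, -1.63, -1.57 and -0.85, while Ctsg differed by 0.14. The adjusted limma p was 0.239 for Mcpt4 and 0.999 for the others, and the groups of Cma1 overlapped. Without Hif1a-/- replicate 1 these were -0.48 for Mcpt2, -0.90 for Mcpt1 and -0.35 for Cma1, and -1.28 for Mcpt4. Without Hif1a-/- replicate 2 they were -2.79 for Mcpt2, -2.24 for Mcpt1, -1.36 for Cma1 and -1.33 for Mcpt4. Without WT replicate 1 they were -1.60 for Mcpt2, -1.37 for Mcpt1, -1.21 for Cma1 and -1.33 for Mcpt4. Without WT replicate 2 they were -1.66 for Mcpt2, -1.78 for Mcpt1, -0.50 for Cma1 and -1.28 for Mcpt4. Mcpt1 read 6.23 and 7.57 in Hif1a-/- cells, against 8.67 and 8.27 in WT cells. Mcpt2 read 6.46 and 8.77 in Hif1a-/- cells, against 9.28 and 9.22 in WT cells. In both genes Hif1a-/- replicate 1 was dim, below the floor of 7.48. With values raised to that floor Mcpt1 differed by -0.95 and Mcpt2 by -1.12. The list of eosinophil, mast cell and basophil genes, which includes Mcpt4, Mcpt8 and Cma1, had 15 measured genes. Of these, 4 had a higher and 11 a lower mean in Hif1a-/- cells, against 61.4% and 38.6% of all genes. Both Hif1a-/- samples lay below both WT samples in 3 and above them in 1, against 9.05% and 15.7%. Among those below was Tpsb2, not one of the neighbours, with a difference of -0.87 and an adjusted limma p of 0.999. The 5 granzyme genes Gzme, Gzmd, Gzmg, Gzmn and Gzmf differed by -0.12 to -0.02. Probe sets of such closely related genes may take up RNA of their relatives, which was not tested. Mpo lies in a cluster of peroxidase genes, of which Lpo (lactoperoxidase) differed by 0.11, with 8.19 and 8.14 in Hif1a-/- cells, against 8.11 and 8.01 in WT cells. Epx, the eosinophil peroxidase gene further along, read 11.91 and 12.36 in Hif1a-/- cells, against 11.57 and 12.17 in WT cells, so that WT replicate 1 was the low sample, as in Mpo. Beside Ms4a3, Ms4a2, which encodes a chain of the high-affinity IgE receptor, had the opposite order between the WT samples, with 11.27 and 11.42 in Hif1a-/- cells, against 11.76 and 11.27 in WT cells. The neighbours of Mpo and of Ms4a3 were divided as well. Near Mpo, WT replicate 2 minus replicate 1 was -0.42 for Tspoap1, -0.25 for Mir142 and 0.36 for Mks1. Near Ms4a3, Ms4a6c and Mrpl16 shared its order, with gaps of 1.35 and 0.55, while Ms4a6d, at -0.22, did not. Lpo, Epx, Ms4a2 and these further neighbours were chosen after their values were seen.

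**Figure D4:**
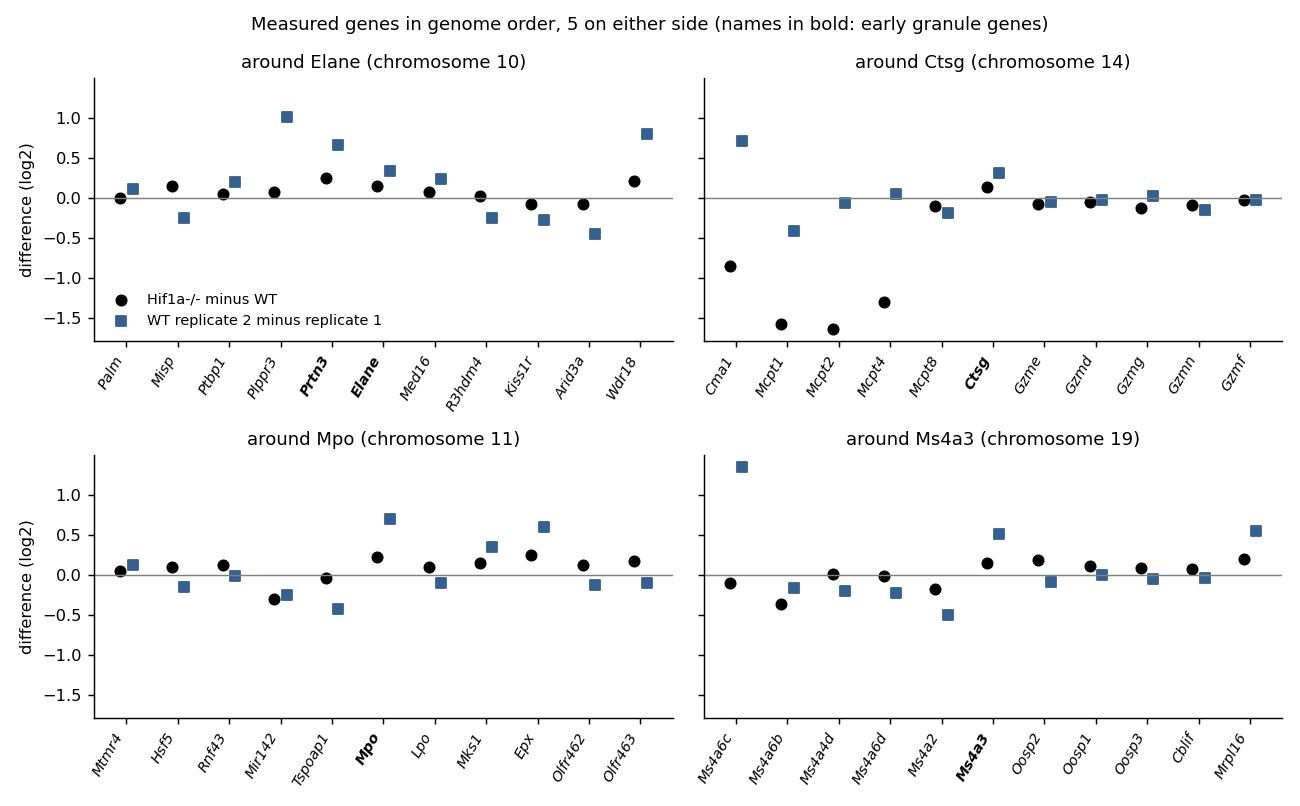
Differences on the log2 scale for the measured genes around Elane, Ctsg, Mpo and Ms4a3, in genome order: Hif1a-/- minus WT (black circles) and WT replicate 2 minus replicate 1 (blue squares). Around Ctsg the mast cell protease genes Mcpt4, Mcpt2 and Mcpt1 lie at -1.30, -1.63 and -1.57 while Ctsg lies at 0.14.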

How the data were processed

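The deposited table holds log2 values of 35556 probe sets, which the authors made with Affymetrix Expression Console 1.1 and RMA, per the submitters' processing notes. RMA corrects background, equalises the arrays by quantiles and summarises probes, which draws differences at low and near-saturated signal together. Probe sets with 1 symbol were kept, the brightest for each gene, and places came from RefSeq, assembly GRCm38.p6. Groups followed the sample titles. All 19938 genes were fitted with limma 3.58.1 in R 4.3.3 (lmFit, eBayes, genotype as the only term, Hif1a-/- minus WT, 2 residual degrees of freedom) and adjusted by Benjamini-Hochberg at 0.05. Permuting 2 against 2 arrays exactly gives no two-sided p below 0.333. The procedure was tested on simulated data. Members and lists were chosen with earlier results of these data known, so no list was tested as a set. By rule the text could name members, Hif1a, sort markers, neighbours of Elane and Ctsg, the nearest profiles and 3 genes with the smallest p per list; other choices are marked. Alternatives were filters, a floor, scalings, a variance trend, array weights, the mean of probe sets, the replicate block and each array left out.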

Additional observations from a re-analysis of the deposited data

How the results depend on the processing

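Over the 9 alternatives that kept all 4 arrays, each member stayed short of the threshold. Only the second quantile normalization and equal array medians could change a member's sign or the overlap of its groups. In both, each member kept its sign and 2 members had separate groups, as in the fit as reported. In that fit 9.05% of all genes had both Hif1a-/- samples below both WT samples and 15.7% above. The other alternatives left the members' differences as they were, since each member had 1 probe set and lay above the floor. The number of genes past the threshold, 0 in the fit as reported, was 2 with a robust variance trend, 47 with the replicate block, 334 at an unadjusted p of 0.05 and 2 at an adjusted p of 0.25. The labels share replicate numbers between genotypes without saying what they mark, and the gaps between replicates correlated at -0.01 over genes, so the block was not used for the result. With the block Mcpt1, Mcpt2, Mcpt4, Cma1 and Ccr2 passed and no member did, and Mcpt4 passed with the robust variance trend. The median difference was -0.12 for other early granule genes with array medians set equal, against -0.10 in the fit as reported. For lineage markers it was -0.18 with a filter at the median, against -0.02 in the fit as reported. For genome neighbours it was 0.02 in the fit as reported, 0.03 with either filter, -0.01 with a second quantile normalization or equal medians and 0.0 with a floor. In the fit as reported it was -0.25 for monocyte genes, -0.12 for eosinophil and mast cell genes and -0.08 for stem genes. With samples left out in turn, the count of genes past the threshold ran from 2 to 1442, that of members from 0 to 2 and that of members with separate groups from 3 to 10, where fewer arrays overlap less. Median differences ran from -0.33 to -0.07 for the regulators, from -0.23 to 0.0 for other regulators, from -0.18 to 0.01 for cytokine receptors, from -0.80 to 0.80 for mature neutrophil genes, from -0.52 to -0.06 for monocyte genes, from -0.30 to 0.0 for eosinophil and mast cell genes, from -0.33 to 0.27 for stem genes, from -0.11 to 0.15 for lineage markers and from -0.01 to 0.04 for genome neighbours. Differences ran from -0.12 to 0.58 for Mpo, from -0.022 to 0.32 for Elane, from -0.084 to 0.58 for Prtn3, from -0.018 to 0.30 for Ctsg, from -0.10 to 0.42 for Ms4a3, from -0.58 to 0.71 for Fcnb, from -0.44 to 0.33 for Cebpe and from -0.085 to 0.36 for Gfi1. They ran from -0.71 to 0.20 for Padi4, from -0.66 to 0.24 for Il1b and from -0.76 to 0.35 for Cxcr2. The cause of these changes beyond the number of samples was not tested.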
